A study of Mus musculus with 17 samples.

Results

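The baseline contrast between 2 epithelial fractions of the mouse small intestine was examined: crypts against intestinal epithelial cells (IEC), both from sham-operated wild-type mice. Members were taken by their titles, which gave 2 sham crypt and 2 sham IEC libraries of 17 libraries in the series. The 2 hepatectomy IEC and 2 hepatectomy crypt libraries, also from wild-type small intestine, were fitted with them so that the spread between replicates rested on 4 groups of 2, and the 9 libraries labelled liver were not used. Hepatectomy is the surgical removal of liver tissue, and a sham operation opens the animal without removing it. The sources used here do not give age, sex, the number of animals or the way in which crypts and IEC were separated. Whether 2 libraries of a group stem from different mice is not labelled, so the p-values reflect only how far these libraries differ, which may be technical. The series title links a gut-liver axis and the secreted protein PEDF with the fitness of intestinal stem cells.

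The small intestinal epithelium renews itself from crypts, the pits at the foot of each villus. Stem cells at the crypt base divide under Wnt and Notch signals, their daughters proliferate as transit-amplifying cells, and these differentiate into absorptive enterocytes or into goblet, enteroendocrine and tuft cells as they move up the villus. Paneth cells, which secrete lysozyme and alpha-defensins, stay at the crypt base. IEC is the usual name for epithelial cells stripped from the mucosa, which can hold villus and crypt cells together.

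Levels are given as counts per 1e+06 after TMM scaling (CPM, 2 libraries of each group in the order of their replicate numbers). Differences are log2 fold changes of sham crypts over sham IEC ± SE, tested by quasi-likelihood in edgeR, with each p adjusted by Benjamini-Hochberg over 18207 genes. Of these, 3523 genes (19.3%) were higher in sham crypts and 3512 (19.3%) were lower at an adjusted p under 0.05, or 38.6% in either direction. At least 2-fold differences were fewer upwards than downwards, with 399 genes (2.19%) higher and 1247 (6.85%) lower. The median over all genes was 0.02. When libraries were scaled by their total counts alone, the median over all genes was 0.37, and 8597 genes were higher and 1742 lower. The share of calls that were higher was thus 50.1% with TMM scaling and 83.2% with total counts, so each difference below is relative to the TMM scaling. By total counts the difference of the median gene lay 0.35 higher, which moves genes near 0 to the higher side.

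Library composition differed between the fractions. Total counts were 27560324 and 26958853 in sham IEC and 26609786 and 37770895 in sham crypts. Mitochondrially encoded genes took 10.1% of the counts in both sham IEC libraries, against 4% and 4.41% in sham crypts. The row Gm10800 took 1.83% and 2.39% in sham IEC, but 0.102% and 0.0717% in the sham crypt libraries. It took 3.44% to 5.12% in the hepatectomy libraries. The sham crypt pair stood apart from the other 6 libraries in both shares. The part of this difference in the results was not tested beyond a fit without mitochondrial genes and Gm10800, in which none of the 314 named genes changed direction and 3 lost their call.

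Markers of the labelled fractions were compared first. Olfm4, a secreted glycoprotein of crypt base cells, stood at 1403 and 1400.3 CPM in the IEC libraries and at 1651 and 1699.7 CPM in the crypt libraries, a difference of 0.26 ± 0.037 (adjusted p = 0.00014). Lgr5, the R-spondin receptor that marks cycling stem cells, had 16.01 and 17.1 CPM in IEC and 12.9 and 12.6 CPM in crypts (-0.38 ± 0.12, adjusted p = 0.022). Both crypt libraries were below both IEC libraries, but this call was lost without any 1 of the 4 sham libraries (adjusted p = 0.051 to 0.12) and with scaling by total counts (-0.02). Ascl2, a transcription factor of stem cells, did not pass the threshold (-0.28 ± 0.12, adjusted p = 0.091), although it passed without replicate 2 of IEC or replicate 1 of crypts (adjusted p = 0.027 and 0.037) and with the replicate number as a block (adjusted p = 0.044). Mki67, the proliferation antigen Ki-67, was higher in crypts, with 110 and 120 CPM against 85.7 and 93.0 CPM (0.37 ± 0.064, adjusted p = 0.00072). Lyz1 and Defa24, products of Paneth cells, were 2.09-fold and 3.19-fold lower in crypts, and Mmp7, the protease that activates alpha-defensins, did not pass (-0.11 ± 0.058, adjusted p = 0.17). The libraries labelled crypt therefore carried more of the proliferation marker and less of the Paneth cell products than the libraries labelled IEC. Of the 3 stem cell markers given here, Olfm4 was higher, Lgr5 lower and Ascl2 not past the threshold. Villus markers were all lower in crypts, from Krt20, a keratin of mature enterocytes (-0.86 ± 0.05), to Apoa4, an apolipoprotein of chylomicrons (-4.14 ± 0.049). Epcam and Cdh1, adhesion proteins of all gut epithelium, did not pass (0.02 ± 0.038 and 0.08 ± 0.047), nor did the keratin Krt8 (-0.05 ± 0.04). By total counts Epcam (0.37), Cdh1 (0.44) and Krt8 (0.31) were all called higher, and Cdh1 also passed with no filter on low counts (0.13, adjusted p = 0.049), so they are no fixed reference.

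**Figure D1:**
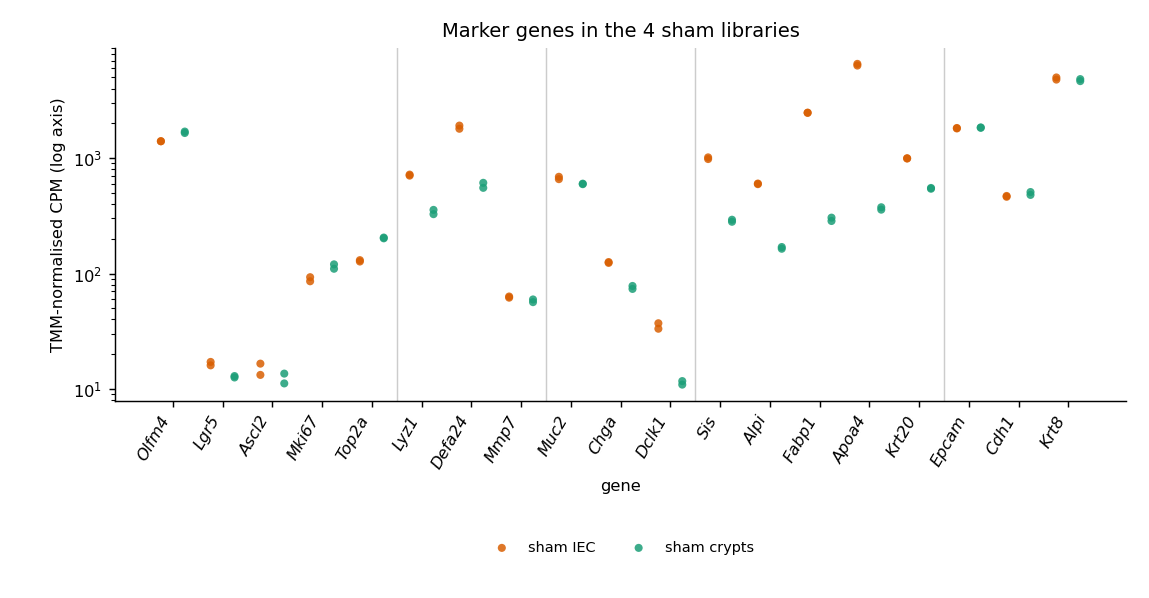
Marker genes (horizontal axis) in the 2 sham IEC and 2 sham crypt libraries, as TMM-normalised CPM on a log axis, 1 point per library. Grey lines separate crypt base and proliferation, Paneth, other secretory, villus and general epithelial markers; Apoa4 falls from 6561 and 6345 CPM in IEC to 375 and 358 CPM in crypts, while Epcam lies between 1809 and 1847 CPM in all 4.

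Stem cell genes did not move together. Of 30 tested crypt base stem cell markers, 10 were higher (33.3%) and 8 lower (26.7%) in crypts, with a median of -0.15. Over all genes 19.3% were called each way. With scaling by total counts, 16 were higher and 0 lower, with a median of 0.21, so the direction of this list rests on the scaling. Rgmb, a co-receptor for bone morphogenetic proteins, had 25.9 and 25.2 CPM in IEC and 57.6 and 46.0 CPM in crypts (1.02 ± 0.14, adjusted p = 0.00011). It was the only member of the list with an at least 2-fold difference. Smoc2, a secreted matrix protein, was 0.24 ± 0.055 higher, and Cdca7, a Myc target, 0.18 ± 0.053 higher. Lower members included Sox9, a transcription factor of crypt progenitors (-0.30 ± 0.062, adjusted p = 0.0024), and Slc12a2, a chloride cotransporter of the crypt (-0.30 ± 0.084, adjusted p = 0.014).

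Genes of the Wnt pathway went both ways. Of 33 members, 27 passed the filter on low counts, 9 were higher (33.3%) and 6 lower (22.2%). Over all genes 19.3% were called each way, so the share lower was near that of any gene. By total counts 17 were higher and 2 lower, so this balance rests on the scaling. Targets linked to growth and adhesion were among the higher ones. Ccnd1, cyclin D1, had 140 and 137 CPM in IEC and 242 and 245 CPM in crypts, a 1.76-fold difference (0.81 ± 0.048, adjusted p = 4.9e-08). Myc, the growth-promoting transcription factor, had 56.2 and 56.5 CPM against 99.9 and 90.7 CPM (0.76 ± 0.064). Cd44, a hyaluronan receptor, was 0.79 ± 0.067 higher and Ephb3, an ephrin receptor that positions crypt cells, 0.91 ± 0.14 higher. Feedback inhibitors and other direct targets were among the lower ones. Sp5, a transcription factor induced by Wnt, had 17.5 and 17.2 CPM against 5.88 and 6.90 CPM (-1.43 ± 0.094, adjusted p = 1.4e-07), and Sfrp5, a secreted Wnt inhibitor, was -1.26 ± 0.16 in crypts. Rnf43, the ubiquitin ligase that removes Wnt receptors, was -0.40 ± 0.065, and Axin2, a scaffold of the destruction complex, -0.38 ± 0.07. Axin2 was at -0.02 with scaling by total counts, where its call was lost. Znrf3, the partner of Rnf43, did not pass (0.03 ± 0.089).

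Notch genes had 8 members higher and 0 lower among 19 tested, with a median of 0.32. Notch1, the receptor, had 13.2 and 15.4 CPM in IEC and 21.3 and 19.9 CPM in crypts (0.52 ± 0.094, adjusted p = 0.00083). Hes1, the repressor that Notch induces, stood at 38.8 and 65.2 CPM against 93.0 and 91.6 CPM (0.83 ± 0.17, adjusted p = 0.0017), and its IEC libraries differed from each other by more than its crypt libraries did. Atoh1 and Spdef, transcription factors of the secretory lineage, were 0.41 ± 0.093 and 0.68 ± 0.09 higher. Dll1 and Dll4, the ligands, did not pass (adjusted p = 0.1 and 0.26), but Dll1 passed without replicate 1 of IEC (0.30, adjusted p = 0.043) and with no filter on low counts (0.23, adjusted p = 0.038). By total counts both ligands were called higher, Dll1 at 0.54 and Dll4 at 0.52. Among 14 tested genes of the EGF family 1 was higher (7.14%) and 6 lower (42.9%), against 19.3% each way over all genes. Nrg4, a ligand of Erbb4, was -1.17 ± 0.22 and the receptor Erbb3 -0.43 ± 0.052 (-0.07, not called, by total counts), while Egfr did not pass (0.06 ± 0.087, and 0.42 and called higher by total counts). Bone morphogenetic protein genes had 1 higher (5.88%) and 5 lower (29.4%) among 17 tested. Bmp2, a ligand of the villus, had 14.96 and 14.3 CPM in IEC and 8.67 and 8.77 CPM in crypts (-0.75 ± 0.092, adjusted p = 4.4e-05), and the target Id2 was -0.84 ± 0.072. By total counts the EGF genes had 4 higher and 2 lower and the bone morphogenetic protein genes 5 higher and 3 lower, so neither list has a direction under both scalings.

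Genes of cell division were higher as a body. All 30 members of the mitosis and spindle list were higher in crypts, between 0.35 (Cenpf) and 0.90 (Ube2c), with a median of 0.61 against 0.02 over all genes. None of the 30 reached 2-fold. Top2a, the topoisomerase that untangles chromosomes, had 131 and 127 CPM in IEC and 202 and 205 CPM in crypts (0.66 ± 0.046, adjusted p = 2.6e-07). Ube2c, which drives mitotic exit, had 98.2 and 96.0 CPM against 178 and 184 CPM (0.90 ± 0.059, adjusted p = 1.2e-07). Cdc20, an activator of the same ubiquitin ligase, was 1.64-fold higher, and Birc5, survivin, 1.68-fold higher. In DNA replication and S phase, 29 of 36 members were higher and 1 was lower. Rrm1 and Rrm2, subunits of ribonucleotide reductase, were 0.57 ± 0.05 and 0.55 ± 0.064 higher, and Mcm2, part of the replicative helicase, 0.37 ± 0.053 higher. Pcna, the sliding clamp, was 0.15 ± 0.055 higher (adjusted p = 0.048), and this call was lost without any 1 of the 4 sham libraries (0.14 to 0.16). It was also lost with DESeq2 (adjusted p = 0.18) and in edgeR with RLE scaling (adjusted p = 0.082) or a replicate block (adjusted p = 0.084). The same held for edgeR without mitochondrial genes and Gm10800 (adjusted p = 0.078) and on the 4 sham libraries alone (adjusted p = 0.077).

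Ribosome production followed the same direction. Of 28 nucleolar ribosome biogenesis genes, 27 were higher and 0 lower, with a median of 0.45. Ppan, a ribosome assembly factor, had 32.3 and 31.6 CPM in IEC and 47.4 and 46.6 CPM in crypts (0.56 ± 0.059, adjusted p = 1.3e-05), and Mybbp1a, which binds rRNA gene regulators, was 0.52 ± 0.054 higher. Of 87 tested genes named as cytosolic ribosomal proteins, a family grouped after the values were seen, 61 were higher and 1 lower, with a median of 0.27. Synthesis of cholesterol also leaned upward, with 17 of 25 members higher and 2 lower. Sqle, an enzyme of the pathway, had 82.1 and 80.7 CPM in IEC and 131 and 132 CPM in crypts (0.69 ± 0.053). Genes of protein folding in the endoplasmic reticulum and of the unfolded protein response had 15 of 25 members higher and 3 lower, among them Calr (0.50 ± 0.041) upward and Trib3 (-2.13 ± 0.18) downward.

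**Figure D2:**
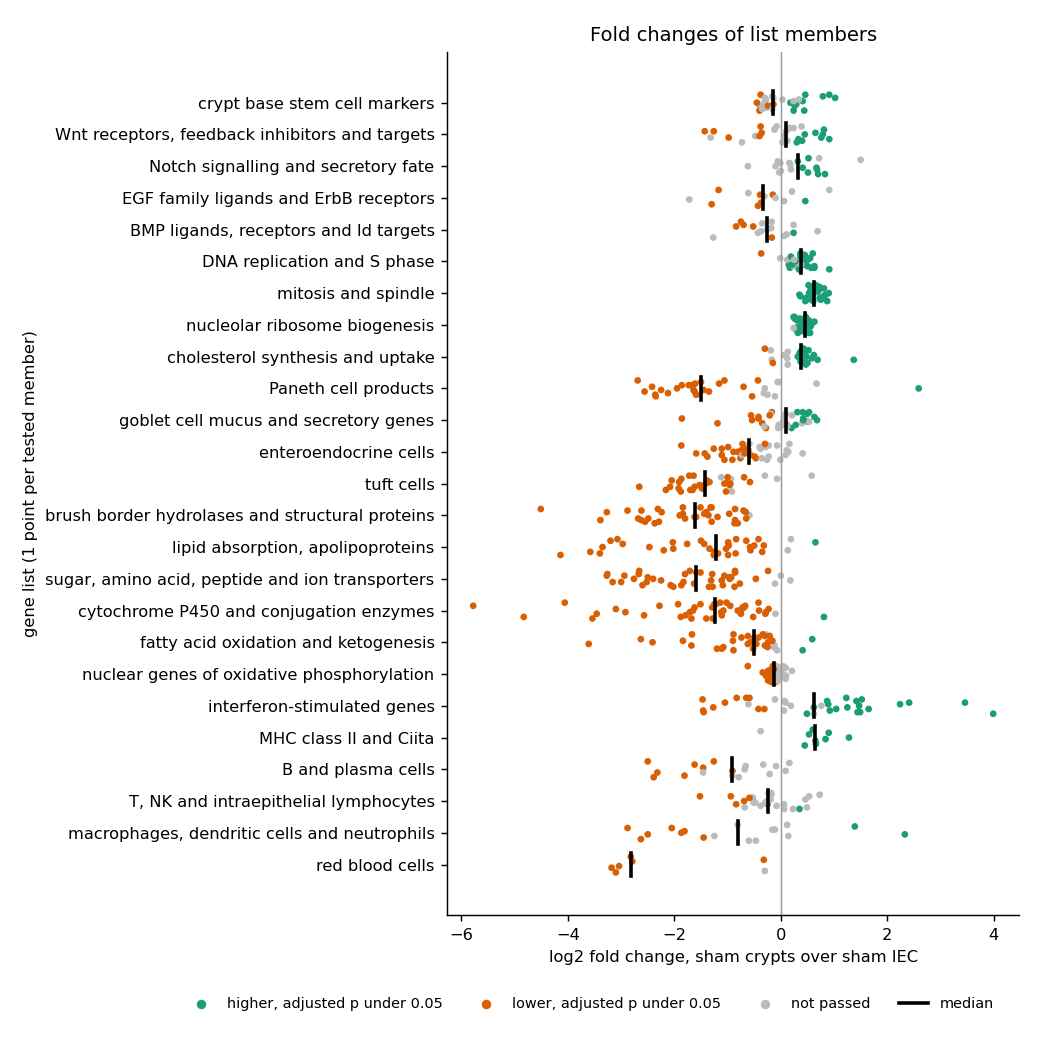
Log2 fold changes of sham crypts over sham IEC (horizontal axis) for the tested members of 25 gene lists (rows), 1 point per gene, with green for higher, orange for lower and grey for not passed at an adjusted p of 0.05, and a black bar at each median. Mitosis genes lie wholly to the right between 0.35 and 0.90, brush border genes wholly to the left between -4.51 and -0.59, and interferon-stimulated genes on both sides between -1.47 and 3.99.

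Paneth cell products were lower in the crypt libraries. Of 31 tested members, 23 were lower, 20 of them at least 2-fold, 1 was higher, and the median was -1.50. Lyz1, lysozyme, had 720 and 706 CPM in IEC and 327 and 356 CPM in crypts (-1.06 ± 0.049, adjusted p = 4.1e-09). Ang4, a microbicidal ribonuclease, had 110 and 104 CPM against 33.4 and 35.1 CPM (-1.64 ± 0.058), and Itln1, a lectin that binds microbial sugars, 522 and 497 CPM against 222 and 234 CPM (-1.16 ± 0.048). In these genes, already called lower, the lowest IEC library was well above the highest crypt library, which adds no separate support.

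The alpha-defensins, small peptides that kill bacteria, were described as a family after their values were seen. Of 26 tested genes, 24 were lower and 2 higher, with a median of -2.19, and all 26 differed by at least 2-fold. Defa24 had 1915 and 1798 CPM in IEC and 553 and 611 CPM in crypts (-1.67 ± 0.053, adjusted p = 1.2e-10). Defa21 and Defa23 were 5.36-fold and 6.47-fold lower. The exceptions were Defa35, with 1.87 and 1.96 CPM against 10.2 and 12.7 CPM (2.59 ± 0.21, adjusted p = 8.9e-07), and Defa27, with 0.187 and 0 CPM against 3.62 and 4.86 CPM (5.44 ± 0.59, adjusted p = 2.6e-05). In hepatectomy crypts Defa35 stood at 0.0294 and 0.186 CPM and Defa27 at 0 in both libraries, so these genes were high in the sham crypts and not in the other crypt pair. Alpha-defensin genes are near-identical copies, and reads shared between them make the count of any one of them uncertain.

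**Figure D3:**
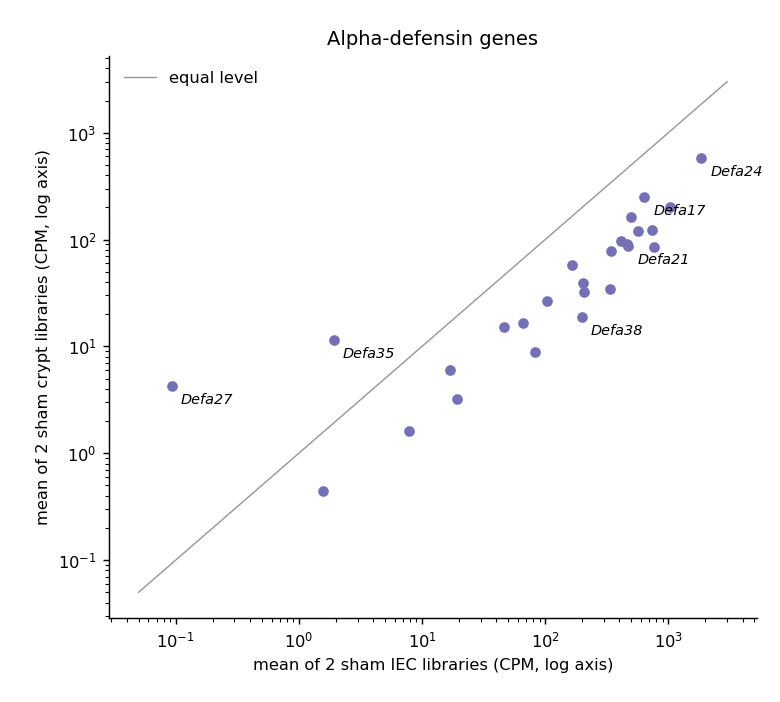
Mean level of 26 alpha-defensin genes in the 2 sham IEC libraries (horizontal axis) and the 2 sham crypt libraries (vertical axis), in CPM on log axes, 1 point per gene, with a grey line at equal level. Defa35 and Defa27 lie above the line and the other 24 genes below it.

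Other secretory lineages differed from each other. Goblet cell genes had 11 higher (31.4%) and 10 lower (28.6%) of 35 tested, with a median of 0.09. Over all genes 19.3% were called each way. By total counts 23 were higher and 4 lower. Agr2, a disulfide isomerase needed to fold mucin, had 397 and 382 CPM in IEC and 544 and 563 CPM in crypts (0.51 ± 0.043, adjusted p = 1.7e-06). Several secreted products were on the lower side. Clca1, a secreted metalloprotease, had 668 and 664 CPM against 506 and 492 CPM (-0.42 ± 0.043), although its call was lost with scaling by total counts (-0.06). Zg16, a lectin of the mucus, had 1350.2 and 1333 CPM against 893 and 924 CPM (-0.56 ± 0.047), and Cgref1 was 3.63-fold lower. Muc2, the gel-forming mucin, was -0.17 ± 0.043 (adjusted p = 0.0074), but this call was lost without replicate 1 of IEC (adjusted p = 0.096) and the sign turned with scaling by total counts (0.19). Tff3 (-0.35 ± 0.041) and Fcgbp (-0.28 ± 0.041) also turned, to 0.01 and 0.08.

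Enteroendocrine genes were lower in 22 of 38 tested and higher in 0, with a median of -0.60. Chga, a granule protein of hormone-secreting cells, had 126 and 124 CPM in IEC and 78.1 and 73.6 CPM in crypts (-0.72 ± 0.054, adjusted p = 4.6e-07). The hormones Nts (neurotensin), Sct (secretin), Sst (somatostatin) and Cck (cholecystokinin) were 3.66-fold, 3.01-fold, 2.60-fold and 2.09-fold lower. Neurog3, the transcription factor of their progenitors, did not pass, with 4.07 and 4.76 CPM in IEC and 4.03 and 4.68 CPM in crypts (-0.01 ± 0.15, adjusted p = 0.96). Tuft cell genes were lower in 28 of 34 tested and higher in 0, with a median of -1.43. Dclk1, a kinase that marks tuft cells, had 33.2 and 37.1 CPM against 11.7 and 10.9 CPM (-1.64 ± 0.089, adjusted p = 2.1e-08), and Trpm5, their cation channel, 35.9 and 36.6 CPM against 12.7 and 10.9 CPM. In bulk RNA, fewer cells of a type and less RNA per cell cannot be told apart, and this holds for every cell type here.

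Enterocyte genes were lower throughout. Of 36 brush border hydrolases and structural proteins, 35 were lower and 0 higher, 27 of them at least 2-fold, with a median of -1.60. Akp3, an intestinal alkaline phosphatase, had 185 and 177 CPM in IEC and 8.55 and 7.38 CPM in crypts, which is 22.8-fold lower (-4.51 ± 0.077, adjusted p = 1e-12). The paralog Alpi had 602 and 595 CPM against 170 and 164 CPM, 3.59-fold lower. Lct, lactase, was 9.62-fold lower and Sis, sucrase-isomaltase, 3.48-fold lower. Vil1, villin, which bundles actin in microvilli, differed less, with 1007 and 988 CPM against 581 and 557 CPM (-0.81 ± 0.05).

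Genes of fat absorption were mostly lower. Of 34 genes, 31 were lower and 1, Acsl3, was higher, with a median of -1.21. Apoa4 had 6561 and 6345 CPM in IEC and 375 and 358 CPM in crypts, 17.6-fold lower (adjusted p = 1.3e-13). It overlaps Gm10680 and Gm47528 on the opposite strand, so without a stated counting strand some of its reads may be theirs. Apoc2 and Apoc3, further apolipoproteins of chylomicrons, were 10.6-fold and 10.2-fold lower. Fabp1 and Fabp2, cytosolic fatty acid carriers, were 8.38-fold and 4.58-fold lower, and Mttp, which loads lipid onto apolipoprotein B, was 1.98-fold lower. Cd36, a fatty acid receptor, had 31.8 and 28.2 CPM against 2.59 and 2.44 CPM (-3.58 ± 0.1).

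Of 41 transporters of sugars, amino acids, peptides and ions, 38 were lower and 0 higher, with a median of -1.59. The fructose transporter Slc2a5 had 270 CPM in both IEC libraries and 30.01 and 25.9 CPM in crypts (-3.27 ± 0.074, adjusted p = 8.6e-12). The glucose transporters Slc2a2 and Slc5a1 were 7.97-fold and 3.27-fold lower, the peptide transporter Slc15a1 4.06-fold and the folate transporter Slc46a1 9.58-fold. Genes of drug and steroid metabolism were lower in 40 of 42, with a median of -1.23, and the 1 higher member was Ahr, a receptor and transcription factor (0.81 ± 0.14). Cyp3a11, a cytochrome P450 of broad range, had 99.9 and 99.1 CPM against 5.94 and 5.96 CPM (-4.06 ± 0.072), and Cyp2b10 was 11.03-fold lower.

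Fatty acid oxidation and ketogenesis genes were lower in 28 of 34 tested and higher in 2, with a median of -0.51. Acaa1b, a peroxisomal thiolase, was 12.2-fold lower. Cpt1a, which admits long-chain fatty acids to mitochondria, was on the other side, with 105 and 107 CPM against 160 and 160 CPM (0.59 ± 0.05, adjusted p = 1.4e-06). Nuclear genes of oxidative phosphorylation were lower in 25 of 51 tested and higher in 0, with a median of -0.12. By total counts 41 were higher and 1 lower, with a median of 0.24, so no direction for this group holds under both scalings.

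Genes of the villus zones and of gut regions, lists that share members with the enterocyte lists, were described next. Of 25 villus tip genes, 19 were lower and 0 higher. Ada, adenosine deaminase, had 88.4 and 86.0 CPM against 15.5 and 17.0 CPM (-2.42 ± 0.07). Of 19 antimicrobial genes of the villus base, 13 were lower and 4 higher, but by total counts 9 were lower and 8 higher. Reg1 was 3.62-fold lower and Reg3b 1.89-fold lower, whereas the related lectin Reg3g did not pass (-0.06 ± 0.033, and 0.30 by total counts). Of 17 genes listed for the proximal small intestine, 12 were lower and 4 higher. The higher ones included Gata4, a transcription factor of the proximal gut, with 38.3 and 64.1 CPM in IEC and 136 and 125 CPM in crypts (1.35 ± 0.28, adjusted p = 0.0025). Cdx1, a homeobox factor of intestinal identity, had 81.3 and 95.8 CPM against 267 and 197 CPM (1.39 ± 0.18). It is a list member that is not particular to the proximal gut. Of 13 genes of ileal bile acid handling, 10 were lower and 1 higher. Slc51a, a subunit of the bile acid exporter, had 257 and 258 CPM in IEC and 146 and 143 CPM in crypts (-0.83 ± 0.044). Slc10a2, the bile acid importer, did not pass (-0.26 ± 0.13, adjusted p = 0.15). Fabp6, the bile acid carrier, was -0.30 ± 0.074, but it lost its call without replicate 1 of IEC or replicate 1 of crypts (adjusted p = 0.051 and 0.059) and turned by total counts (0.05). Fgf15, the hormone that reports bile acids to the liver, was -1.12 ± 0.29 and lost its call without replicate 1 of IEC or replicate 2 of crypts (adjusted p = 0.094 and 0.11). Guca2b, uroguanylin, which is a member outside bile acid handling itself, was 8.88-fold lower.

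Interferon-stimulated genes went in both directions. Of 36 members, 18 were higher and 10 lower, with 13 and 5 at least 2-fold. The higher side held immunity-related GTPases, which attack the vacuoles of intracellular pathogens, and the machinery that cuts and loads peptides for MHC class I. The lower side held Irf7, Isg15, Rsad2 and some genes of the Ifit and Oas families, whose products bind or sense viral RNA. These families were not on one side as a whole, since Ifit2 was higher and Oas1a did not pass, and the antiviral gene Bst2 was also higher. No test by interferon type was made.

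Sequences upstream of these genes are shown because both sides of the split are classed as interferon-stimulated, and the response element bound by interferon-activated factors can be read in them. The element, written as GAAA, any 2 bases and GAAA again, was searched on both strands in the 250 bases before each start site (RefSeq, GRCm38.p6). It was present in 936 of 27025 genes (3.46%), in 7 of 14 higher members with a promoter entry (50%) and in 5 of 9 lower members (55.6%). A match is a description of the letters and not a site in use. For 4 higher genes, a window of 60 bases out of these 250 is printed 5′ to 3′ on the strand of the gene. Only the first match in the 250 bases is in capitals. It begins 34 bases before the start site in Igtp, 64 in Irgm2, 77 in Tgtp1 and 70 in Tgtp2.
Igtp: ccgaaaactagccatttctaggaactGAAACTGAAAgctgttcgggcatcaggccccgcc
Irgm2: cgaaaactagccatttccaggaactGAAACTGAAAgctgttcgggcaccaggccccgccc
Tgtp1: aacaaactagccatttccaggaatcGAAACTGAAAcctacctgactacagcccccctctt
Tgtp2: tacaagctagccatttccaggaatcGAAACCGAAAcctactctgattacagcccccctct
These lie at chr11:58199496-58199555 and chr11:58214888-58214947 on the plus strand, and at chr11:48992289-48992348 and chr11:49064248-49064307 on the minus strand. For 4 lower genes the windows are shown for comparison, and in Ifit1 and Ifit3 the element is on the opposite strand and so reads TTTC, 2 bases and TTTC. The capitals begin 104, 156, 78 and 75 bases before the start site in Ifit1, Ifit3, Isg15 and Oas3. The 250 bases hold 2, 2, 3 and 1 matches in these genes, and those of the 4 higher genes shown hold 1 each. Irgm1 and Bst2, higher genes not shown, hold 2 each. Further matches in the Ifit1 and Isg15 windows stay in lower case.
Ifit1: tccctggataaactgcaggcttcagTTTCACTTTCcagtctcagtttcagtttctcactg
Ifit3: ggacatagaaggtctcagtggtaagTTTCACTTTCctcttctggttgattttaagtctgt
Isg15: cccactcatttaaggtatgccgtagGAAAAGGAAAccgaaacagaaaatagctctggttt
Oas3: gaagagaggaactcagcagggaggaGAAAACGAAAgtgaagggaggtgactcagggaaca
These lie at chr19:34640760-34640819 and chr19:34583348-34583407 on the plus strand, and at chr4:156200862-156200921 and chr5:120777700-120777759 on the minus strand. The element was found on both sides of the split.

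Igtp had 28.8 and 26.7 CPM in IEC and 134 and 127 CPM in crypts, 4.71-fold higher (2.24 ± 0.058, adjusted p = 2.5e-11). Tgtp1 had 1.49 and 2.57 CPM against 31.8 and 32.5 CPM (3.99 ± 0.15, adjusted p = 6.2e-10), and Tgtp2 5.11 and 4.64 CPM against 33.0 and 34.7 CPM (2.79 ± 0.088). All 7 tested genes of this GTPase family, grouped after the values were seen, were higher, with a median of 2.24. Tgtp1 and Tgtp2 are close copies, Tgtp1 overlaps Gm12185 and Igtp overlaps Irgm2, so single counts are uncertain. Iigp1 was on the same side, with 0.522 and 0.729 CPM against 5.76 and 7.98 CPM.

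Several antigen presentation genes were higher with them. Psmb8 and Psmb9, subunits of the immunoproteasome, had 303 and 311 CPM against 737 and 727 CPM (1.25 ± 0.039) and 136 and 135 CPM against 368 and 354 CPM (1.42 ± 0.044). Tap1, the peptide transporter, was 2.80-fold higher and Nlrc5, the transactivator of MHC class I, 5.33-fold higher. The class I genes H2-Q7 and H2-Q6 were 6.79-fold and 6.70-fold higher, although they are close copies that can share reads. Of 18 tested class I heavy chains, a family grouped after the values were seen, 10 were higher (55.6%) and 4 lower (22.2%). Over all genes 19.3% were called each way. At least 2-fold differences were found in 4 upwards and 2 downwards, and the median was 0.22. The classical H2-K1 and H2-D1 differed by only 0.17 ± 0.041 and 0.32 ± 0.052, and B2m, their light chain, did not pass (0.04 ± 0.044). Of 9 tested MHC class II genes, 8 were higher and 0 lower. H2-Eb1 had 323 and 309 CPM against 571 and 565 CPM (0.84 ± 0.041), and Ciita, the class II transactivator, 30.2 and 32.3 CPM against 48.6 and 49.3 CPM (0.65 ± 0.065).

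The genes on the lower side differed in the other direction. Ifit1 had 20.2 and 18.8 CPM in IEC and 7.44 and 6.86 CPM in crypts (-1.45 ± 0.09, adjusted p = 7.9e-08). Ifit3 was 2.78-fold lower, Irf7, the factor that amplifies type I interferon, 2.06-fold lower, and Oas3 1.51-fold lower. Isg15, a ubiquitin-like modifier, had 10.6 and 10.9 CPM against 6.29 and 7.34 CPM (-0.65 ± 0.11). Ifit2 was an exception within its family, with 1.68 and 1.80 CPM against 5.17 and 4.48 CPM (1.47 ± 0.2, adjusted p = 0.00011).

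**Figure D4:**
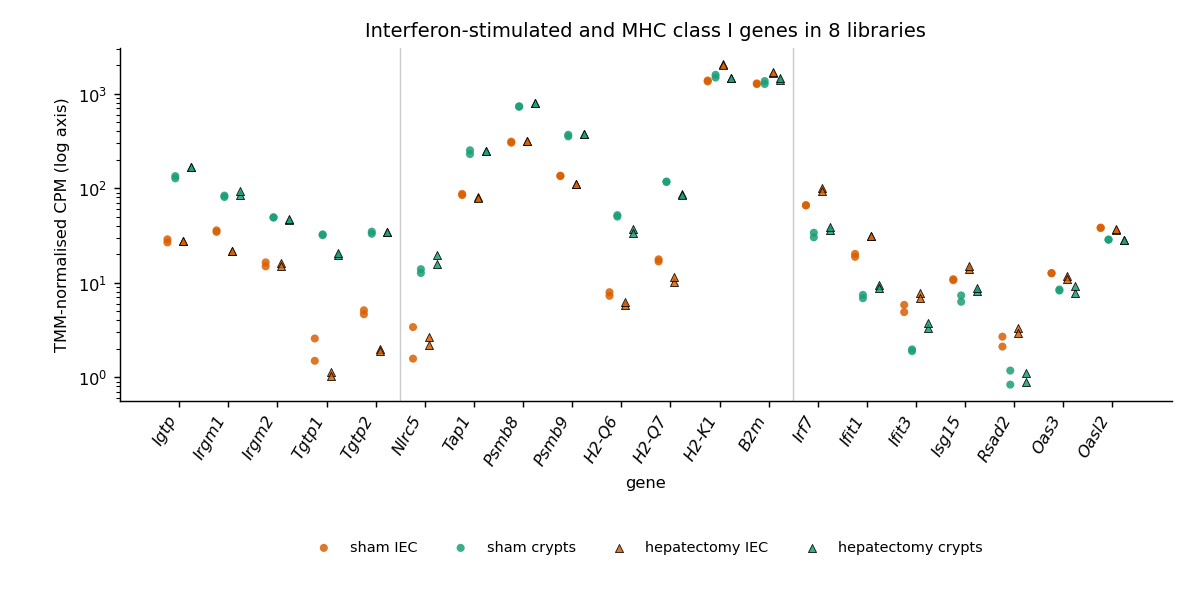
Interferon-stimulated and antigen presentation genes (horizontal axis) in all 8 intestinal libraries, as TMM-normalised CPM on a log axis, 1 point per library, with circles for sham, triangles for hepatectomy, orange for IEC and green for crypts. Grey lines separate GTPases, presentation genes, and the Irf7, Ifit and Oas side; Igtp lies at 26.7 to 28.8 CPM in the 4 IEC libraries and at 127 to 168 CPM in the 4 crypt libraries.

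Some of these genes were compared between the fractions after hepatectomy. The running numbers in the deposited files' names place the sham and the hepatectomy libraries in separate series, so surgery and series cannot be told apart in this comparison. Igtp was 2.59 higher in hepatectomy crypts than in hepatectomy IEC, Tgtp1 4.21 and H2-Q7 2.98 (log2). Ifit1 was -1.77 and Irf7 -1.37. The difference between the sham and the hepatectomy contrast did not pass for Tgtp1 (-0.22 ± 0.27, adjusted p = 0.62), H2-Q7 (-0.22 ± 0.097, adjusted p = 0.14) or Ifit1 (0.31 ± 0.12, adjusted p = 0.1), and it passed for Igtp (-0.35 ± 0.081, adjusted p = 0.0097). Over all genes, 3499 (19.2%) had a contrast that differed between sham and hepatectomy, with 10.1% higher and 9.15% lower in sham, and 51.9% differed between the fractions after hepatectomy. The 9 tested MHC class II genes had 5 higher and 3 lower after hepatectomy, with a median of 0.13 against 0.65 in sham. The contrast differed for 6 of them. The 18 tested class I heavy chains had 6 higher and 6 lower after hepatectomy, with a median of -0.16 against 0.22 in sham. It differed for 7 of these.

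Epithelial oxidases and other antimicrobials had 7 higher (33.3%) and 8 lower (38.1%) of 21 tested, against 19.3% each way over all genes. The lower side held Reg lectins and Sprr2a copies, with Reg3a, Sprr2a1 and Reg1 at -1.95 ± 0.055, -1.40 ± 0.056 and -1.85 ± 0.039. Nox1, an NADPH oxidase that makes superoxide, had 5.90 and 6.10 CPM in IEC and 23.0 and 21.1 CPM in crypts, 3.67-fold higher (1.88 ± 0.11, adjusted p = 4.1e-08). It overlaps Cstf2 on the opposite strand. Duox2, which makes hydrogen peroxide at the cell surface, had 66.2 and 69.1 CPM against 91.0 and 89.3 CPM (0.41 ± 0.068), and Nos2, the inducible nitric oxide synthase, was 0.35 ± 0.065 higher. In the clock list 1 of 18 tested was higher and 7 lower, but by total counts 6 were higher and 5 lower. Nr1d1, the repressor Rev-erb alpha, had 37.8 and 39.1 CPM against 7.88 and 8.90 CPM (-2.19 ± 0.089, adjusted p = 1.3e-09), while Per1 was 0.82 ± 0.11 higher and Arntl did not pass (0.09 ± 0.067, and 0.44 and called higher by total counts). Nr1d1 overlaps Thra on the opposite strand.

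Immediate early genes, which can rise when tissue is dissociated, were lower in 10 of 22 tested and higher in 2, but by total counts 5 were higher and 4 lower. Fos had 38.4 and 34.1 CPM in IEC and 26.3 and 27.7 CPM in crypts (-0.42 ± 0.067), and Junb 79.0 and 81.8 CPM against 51.8 and 47.9 CPM (-0.69 ± 0.061). The Fos call was lost with scaling by total counts (-0.07). Of 22 p53 targets, 8 were lower and 2 higher, which turned to 3 lower and 8 higher by total counts. Cdkn1a, the cell cycle inhibitor p21, had 176 CPM in both IEC libraries and 101 and 100.4 CPM in crypts (-0.81 ± 0.044, adjusted p = 2.2e-08).

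Markers of other cells were lower in crypts for blood and plasma cells. Of 7 tested red blood cell genes, 6 were lower, and their summed level was 390 to 397 CPM in IEC and 97.0 to 99.8 CPM in crypts. Hbb-bs, a beta-globin, had 111 and 108 CPM against 16.1 and 14.9 CPM (-2.82 ± 0.1). Of 18 tested B and plasma cell genes, 8 were lower and 0 higher, summing to 534 to 547 CPM in IEC and 107 to 113 CPM in crypts. Igha, the heavy chain of IgA, had 287 and 281 CPM against 51.6 and 49.2 CPM (-2.50 ± 0.062, adjusted p = 1.6e-11). Of 70 tested immunoglobulin variable segments, 56 were lower and 0 higher. T, NK and intraepithelial lymphocyte genes had 1 higher and 7 lower of 28, a share lower (25%) near the 19.3% over all genes, and 5 higher and 3 lower by total counts. They summed to 211 to 215 CPM in IEC and to 169 to 178 CPM in crypts, and Cd3e did not pass (-0.19 ± 0.13). Of the fibroblast, endothelial and muscle lists 2 of 14 (14.3%), 1 of 9 (11.1%) and 1 of 6 (16.7%) tested members were lower and 0 higher. These shares are under the 19.3% lower over all genes, and the medians were -0.10, -0.21 and -0.46. The summed levels of these lists were 191 to 195, 14.2 to 15.3 and 170.1 CPM in IEC, against 88.3 to 89.9, 11.4 to 12.1 and 123 to 124 CPM in crypts. Such sums can rest on single abundant members, which was not tested. In the fibroblast list, 1 member was at least 2-fold lower, Fbln1 (-1.50). Col1a1 was at 0.0767 to 0.242 CPM in all 4 sham libraries. Of 8 tested genes of mast cells and eosinophils 3 were higher, 1 lower and 4 did not pass. The mast cell proteases Mcpt1 and Mcpt2 were 1.84-fold and 2.14-fold higher in crypts, with 8.62 and 8.98 CPM against 14.6 and 17.7 CPM for Mcpt1. The lower member was Siglecf, an eosinophil marker (-2.05 ± 0.12). Cpa3 passed (1.36, adjusted p = 0.048), but not without any 1 of the 4 sham libraries (adjusted p = 0.11 to 0.3). The part of these cells in the lists above was not tested.

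The 12 largest rises and 12 largest falls were taken among named, non-pseudogene loci with at least 5 CPM in the higher fraction. Besides the interferon and class I genes, the rises held Inf2, an actin-regulating formin, with 1.57 and 1.38 CPM in IEC and 10.8 CPM in both crypt libraries (chromosome 12, 112588784 to 112615557, mm10), and Cebpd, a transcription factor of acute inflammation, with 5.93 and 8.75 CPM against 45.1 and 39.9 CPM. Beyond the enterocyte genes above, the falls held Leap2, a peptide that antagonises the ghrelin receptor, with 95.3 and 93.4 CPM against 5.20 and 5.38 CPM, 17.8-fold lower (chromosome 11, 53422181 to 53423170). Npl, which degrades sialic acid, was 21.1-fold lower, Mbl2, a mannose-binding lectin of complement, 11.99-fold lower, and Pdzk1, a scaffold for brush border transporters, 11.3-fold lower.

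Some genes were high in the sham crypt pair alone among the 4 pairs. Among 7 genes with at least 5 CPM in both sham crypt libraries and under 1 CPM in both sham IEC libraries, 5 were also under 1 CPM in all 4 hepatectomy libraries. These were Stox2, a winged-helix gene with 0.97 and 0.575 CPM in sham IEC, 5.67 and 5.65 CPM in the sham crypt pair and 0.512 to 0.786 CPM after hepatectomy, and the pseudogenes Gm13841, Gm8210, Rpl15-ps2 and Rpl15-ps6. Rpl15-ps6 had 0.261 and 0.422 CPM in sham IEC and 38.9 and 41.4 CPM in the sham crypt pair (6.87 ± 0.16, adjusted p = 1e-11), and 0.286 to 0.558 CPM after hepatectomy. Gm8210 had 0 counts in the other 6 libraries and 394 and 510 counts in sham crypts, which is at least 100.4-fold higher than sham IEC against a floor of 3 counts per library, a limit that covers counting error only. Rps3a3, a ribosomal protein copy, had 8.36 and 8.78 CPM in sham IEC, 103 and 125 CPM in the sham crypt pair, and 6.29 to 9.69 CPM after hepatectomy. Reads from the parent ribosomal protein genes can be split among such copies, so these counts are uncertain. These genes separate the sham crypt pair from the hepatectomy crypts, so their level goes with that pair and not with the crypt label alone.

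**Figure D5:**
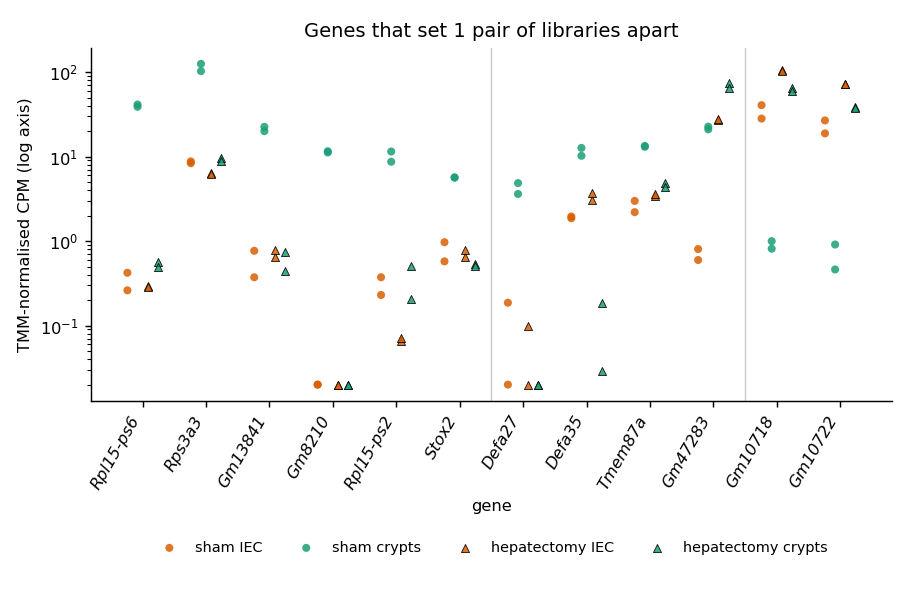
Genes that set the sham crypts or the sham IEC apart (horizontal axis) in all 8 intestinal libraries, as TMM-normalised CPM on a log axis, 1 point per library, with values of 0 drawn at 0.02 CPM. Rpl15-ps6 lies at 38.9 and 41.4 CPM in sham crypts and under 1 CPM in the other 6 libraries, while Gm10718 lies under 1 CPM in both sham crypt libraries and above 28 CPM in the other 6.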

How the data were processed

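RNA was measured by RNA-seq in 17 libraries, of which the 8 intestinal ones were analysed and the 9 labelled liver were not used here. The authors deposited expected counts per gene symbol for each library. The submitters' processing notes name STAR, Partek and mm10, with no versions, and the sources used here do not give the strand of counting. Of the deposited values, 36.7% were not whole and were rounded to whole numbers, and 17 values of 1e+06 or more carried 3 digits.

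Groups came from the labels. Genes were kept by edgeR's filterByExpr (minimum count 10, minimum total 15), scaled by TMM and fitted with edgeR 4.0.16 (quasi-likelihood, R 4.3.3) over 4 groups, with Benjamini-Hochberg adjustment over 18207 genes and a threshold of 0.05. The biological coefficient of variation was 5.94%. Total counts of the 8 libraries ran from 26609786 to 43580050. Gene lists, members and tests were chosen with earlier results of these data known, and 16 families were grouped after the values were seen. Named genes were fixed examples of each list, up to 4 further members with the smallest p, and the 12 largest rises and 12 largest falls among genes with at least 5 CPM in the higher fraction, no overlap between the fractions and no predicted models, mitochondrial genes, receptor or immunoglobulin segments or pseudogenes. Other genes named were chosen after their values were seen. The fit was tried on simulated counts with 200 changed genes. It called 79.1% of the 1.5-fold, 86.6% of the 2-fold and 100% of the 4-fold changes. Of its calls, 9.23% were unchanged genes, above the 5% that the threshold of 0.05 aims at. This was a single draw over 17720 genes, with changes only above 1 CPM and all other sham genes set equal. In the data 38.6% of genes were called, so these shares may not carry over to them. Of 314 named genes, 84 overlap another gene in GENCODE vM21. Alternatives were DESeq2 1.42.0, other scalings and filters, a replicate block, a test against a log2 fold change of 1, the 4 sham libraries alone, and each library left out. A few genes of the lists are counted but not reported here by name.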

Additional observations from a re-analysis of the deposited data

Results flagged for a closer look

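The interaction was tested in all genes, of which 19.2% passed, and 10 marker genes chosen with earlier results known were looked at for it here. For 8 of these 10, the crypt against IEC difference itself differed between sham and hepatectomy, by edgeR's interaction test with adjustment over all genes. Sham and hepatectomy libraries carry separate series of running numbers, so surgery and series cannot be told apart. Values are the sham log2 difference minus that after hepatectomy.

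Olfm4, the crypt base glycoprotein, was 0.26 higher in sham crypts and 0.56 higher after hepatectomy (-0.30, adjusted p = 0.0019). Top2a, the topoisomerase of dividing cells, was 0.66 and 1.06 higher (-0.41, adjusted p = 0.0013). Both had the same direction after either operation.

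Lyz1 was -1.06 in sham and -1.92 after hepatectomy (0.86, adjusted p = 6.3e-06). Muc2 was -0.17 and -1.47 (1.30, adjusted p = 1.2e-07). Chga was -0.72 and -0.48 (-0.24, adjusted p = 0.042). Among these secretory genes Muc2 had the largest difference and Chga the smallest.

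Fabp1 was -3.07 in sham and -2.04 after hepatectomy (-1.03, adjusted p = 5.6e-07). Alpi was -1.84 and -2.38 (0.53, adjusted p = 7.3e-05), and Apoa4 -4.14 and -4.47 (0.33, adjusted p = 0.0029). These enterocyte genes were lower in crypts after either operation, with differences of both signs between them. Lgr5 (0.13, adjusted p = 0.63) and Igha (0.25, adjusted p = 0.079) did not pass.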

How the results depend on the processing

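Scaling was the setting that moved most results. With library size only, 8597 genes were higher and 1742 lower, 1229 were at least 2-fold higher, and 24 gene lists had more members higher than lower and 16 the reverse, against 14 and 27 with TMM. Under it 23 of 314 named genes turned: Id3 (0.19), Mmp7 (0.25), Muc2 (0.19), Tff3 (0.01), Fcgbp (0.08), Reg3g (0.30), Nlrp6 (0.22), Acadl (0.05), Ppara (0.29), Uqcrc1 (0.12), Cox4i1 (0.12), Atp5a1 (0.28), Atp5o (0.12), Sdhb (0.14), Ndufb3 (0.01), Cox6c (0.07), Fabp6 (0.05), S100a6 (0.09), Mdm2 (0.32), Bpgm (0.04), Krt8 (0.31), Cldn15 (0.04) and Tjp1 (0.02). Total-count scaling sets every sum equal, and the median over all genes moved by 0.35. With the stricter filter, which tests fewer genes, 155 genes were at least 2-fold higher and 610 at least 2-fold lower, and the endothelial and neural lists had no tested member left. Tested against a log2 fold change of 1, a harder null, 91 were higher and 641 lower.

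Leaving out each library in turn gave 2454 to 3631 genes higher and 2730 to 3647 lower, 298 to 406 and 1065 to 1293 at least 2-fold, 13 to 14 lists mostly higher and 25 to 28 mostly lower, and 2349 to 3099 genes whose contrast differed between sham and hepatectomy. A group left with 1 library was assumed to vary like the others. Among named genes, 17 lost their call without at least 1 sham library.

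Replicate numbers were shared between the fractions, but deviations of same-numbered libraries did not correlate (-0.02 in sham and -0.04 after hepatectomy over 10318 genes). With the replicate number as a block, 3291 genes were higher and 3292 lower, 367 and 1168 at least 2-fold, 13 and 27 lists leaned higher and lower, and 2882 genes differed between sham and hepatectomy.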

Other observations

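Further genes were chosen after their values were seen. On the side higher in crypts were Ceacam10, a carcinoembryonic antigen family member (1.25), Phgdh, the first enzyme of serine synthesis (1.05), and Ifitm3, a membrane protein that blocks virus entry (1.34), all past the threshold of edgeR's test. On the lower side were Selenop, the selenium carrier (-3.47), Maob, which degrades amines (-2.70), Dio1, a thyroid hormone deiodinase (-2.68), Aldh1a1, which makes retinoic acid (-2.45), and S100g, a calcium carrier of the enterocyte (-1.89). Pigr, the receptor that carries IgA across the epithelium, was -0.41. Of 9 tested gasdermin genes, 3 were higher and 3 lower (33.3% each, against 19.3% each way over all genes). Among them were Gsdmc2 (0.64), Gsdmc4 (0.59) and Gsdma (-2.65).

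Gm47283, on chromosome Y, had 0.597 and 0.806 CPM in sham IEC, 22.6 and 21.1 CPM in sham crypts and 26.9 to 74.9 CPM in the hepatectomy libraries. Other genes of chromosome Y did not share this low level in sham IEC. Over all sham libraries, Ddx3y ranged from 12.05 to 13.16 CPM and Eif2s3y from 20.96 to 24.7 CPM. Kdm5d ranged from 10.59 to 12.05 CPM and Uty from 7.202 to 8.901 CPM. Xist, the RNA of X inactivation, was at most 0.0879 CPM in them. Tmem87a had 2.20 and 2.99 CPM in sham IEC, 13.1 and 13.4 CPM in sham crypts and 3.38 to 4.88 CPM after hepatectomy, and it overlaps Ganc.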
